A study of Mus musculus with 6 samples.

Results

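Heat shock proteins are molecular chaperones, and 10 of their genes are described here in dorsal root ganglia of the mouse embryo, the clusters of sensory neurons beside the spinal cord. The members are Hspa8, Hspa5, Hspa9, Hspa1a and Hspa1b of the HSP70 family, Hsp90aa1, Hsp90ab1 and Hsp90b1 of the HSP90 family, the small heat shock protein Hspb1 and the cochaperone Dnajb1. They were chosen by name, as 10 of the 37086 genes in the files, and have 42 of the 93615 transcripts. All 6 libraries came from 1 pool of RNA from ganglia of 18 wild-type C57BL/6J embryos at day 14.5, so every spread and p-value below is technical and none measures spread between animals. High-volume libraries started from RNA in 9 µl and the SMARTer Ultra Low Input HV kit, low-volume libraries from RNA in 1 µl and the SMARTer Ultra Low RNA kit, so effects of the volume and of the kit cannot be told apart. Each volume was run once at 3, 10 and 30 ng of RNA, and all libraries were sheared for 3 min and had 12 cycles of PCR. The labels name no heat shock or other stress.

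HSP70 proteins bind exposed stretches of unfolded proteins in a cycle driven by ATP, J-domain proteins such as Dnajb1 start that cycle, and HSP90 proteins take over clients such as kinases and steroid receptors at a later stage of folding. Most families have a constitutive member that serves protein folding in unstressed cells and an inducible member whose transcription is raised by the heat shock factor HSF1 when proteins unfold. Hspa5 and Hsp90b1 work in the endoplasmic reticulum and Hspa9 in mitochondria. Hspb1 holds unfolded proteins without ATP. In people, mutations in its counterpart cause inherited neuropathies.

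The libraries held 14160401 to 31524211 tags on the transcripts that represent the genes, a tag being 1 read counted on a transcript. The members together took 0.514%, 0.526% and 0.564% of the tags in the 3, 10 and 30 ng high-volume libraries, against 0.608%, 0.652% and 0.655% in the 3, 10 and 30 ng low-volume libraries. The label of the tissue fitted its markers: 8 of 8 sensory neuron markers had a mean of at least 10 RPKM, and their summed level ranged from 8786 to 10374 RPKM in high-volume libraries and from 10308 to 12126 RPKM in low-volume libraries. RPKM is the authors' tag count divided by transcript length and by library size, and it is the scale of every level below. Libraries of pooled tissue do not show which cells hold a transcript, and fewer cells of a type and less RNA per cell cannot be told apart. Markers of blood, vessels, connective tissue and macrophages were present as well, and 4 of 5 erythroid markers reached a mean of 10 RPKM.

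Among the 10 members, the constitutive genes held most of the summed level. Summed over the 5 members of each class, the inducible members had 157, 172 and 141 RPKM in the 3, 10 and 30 ng high-volume libraries and 127, 165 and 155 RPKM in the matching low-volume libraries. The constitutive members had 1682, 1693 and 1896 RPKM in the high-volume libraries and 2141, 2202 and 2243 RPKM in the low-volume libraries. The constitutive sum was thus 9.85 to 16.8 times the inducible sum in each library. Hsp90aa1 alone gave 85.2% to 89.6% of the inducible sum, and Hspa8 with Hsp90ab1 gave 77.2% to 82.6% of the sum over all 10 members.

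**Figure D1:**
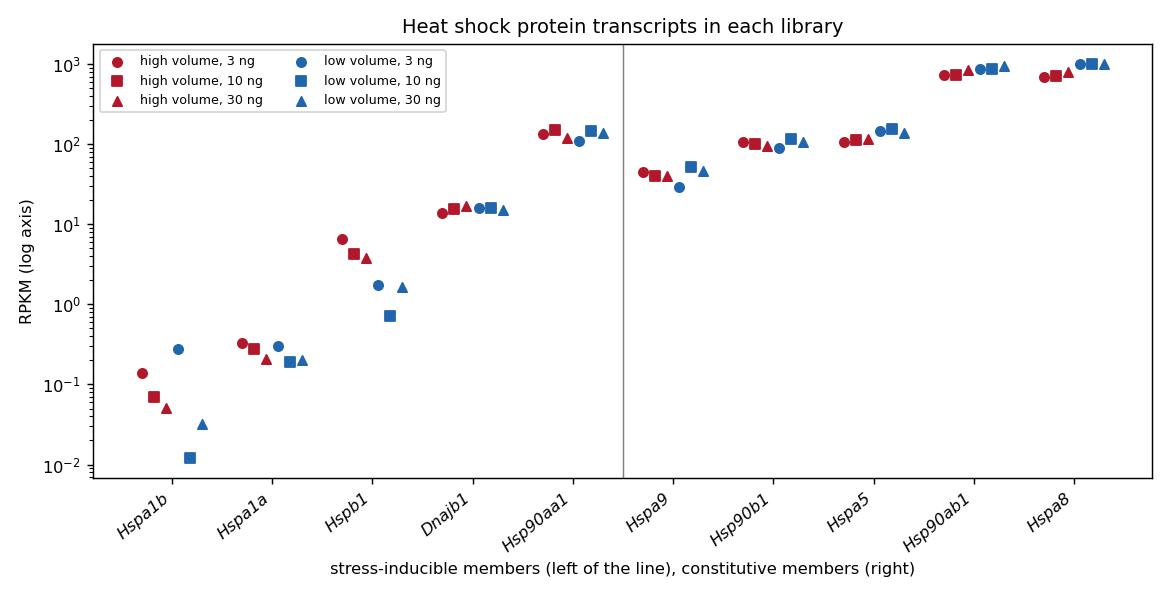
RPKM of each member on a log axis, with the inducible members left of the line and the constitutive members right of it; each point is 1 library, red for high and blue for low volume, with the marker giving the input. Hspa8 and Hsp90ab1 lie between 697 and 1014 RPKM, Hspa1a and Hspa1b below 0.4 RPKM, and Hspb1 is the one member whose high-volume points all lie above its low-volume points.

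Over the 6 libraries the order of the mean levels was Hspa8 (873 ± 154 RPKM, SD, n = 6 here and below), Hsp90ab1 (828 ± 83.0), Hsp90aa1 (134 ± 16.3), Hspa5 (130 ± 20.8), Hsp90b1 (103 ± 9.42), Hspa9 (42.4 ± 7.85), Dnajb1 (15.6 ± 1.02), Hspb1 (3.12 ± 2.15), Hspa1a (0.251 ± 0.0605) and Hspa1b (0.0960 ± 0.0973). The ranges overlapped for 4 pairs of neighbours: Hspa8 and Hsp90ab1, Hsp90aa1 and Hspa5, Hspa5 and Hsp90b1, and Hspa1a and Hspa1b. All other neighbours were separated in every library. Among all 37086 genes, Hspa8 and Hsp90ab1 each stood above 99.6% and Hspa1b above 48.8%, on coding transcripts.

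Hspa8 encodes HSC70, the constitutive cytosolic HSP70 that also strips clathrin from vesicles. On its coding transcript (ENSMUST00000015800, chr9:40800984-40805200, + strand, 9 exons, 2394 bases) it had 697, 705 and 809 RPKM in the 3, 10 and 30 ng high-volume libraries, against 1014, 1006 and 1008 RPKM in the low-volume libraries. All 3 high-volume libraries were below all 3 low-volume libraries, and the low-volume libraries were almost level. The transcript with the most tags, which stood for the gene in the fit across all genes, is annotated as a retained-intron form (ENSMUST00000149936, 3158 bases), and its tags differed from those of the coding transcript by at most 25 in any library. On that longer form the level was 559 ± 47.6 RPKM in high volume and 765 ± 3.19 RPKM in low volume (SD, n = 3 each). The tags therefore lay on exons that both forms share, and an RPKM depends on which form is taken.

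The fitted log2 difference of Hspa8 between high and low volume was -0.31 (SE 0.07), with an unadjusted p of 0.0035 and an adjusted p of 0.623 by edgeR's quasi-likelihood test over 16120 genes. It was below 0 in each of the 14 alternative fits, and the adjusted p was 0.047 in edgeR with the 10 and 30 ng libraries alone and 0.0091 in DESeq2. Over all genes these settings called 274 and 179 genes for volume, in that order. In the fit of all libraries, 1 gene passed for volume, or 0.0062% of those tested, and no member passed. Most exons of Hspa8 lay the same way in the deposited RPKM: 8 of 9 had all 3 high-volume libraries below all 3 low-volume libraries, and the exception was exon 1, which is untranslated. Of all exons with a mean of at least 50 tags, 20% lay wholly below in this way, and exons of 1 gene are not independent. The 3 genes below were most like Hspa8 in their course over the 6 libraries, by the root mean square difference of centred log2 CPM among 8722 genes with a mean of at least 10 CPM. They were Nr1i3 (0.031), Nsg1 (0.034) and Atp6ap1 (0.040), against a spread of Hspa8 itself of 0.18 (SD) on the same scale. Their fitted log2 differences between volumes were -0.34, -0.30 and -0.28, in that order. All libraries came from the same pool of RNA, so this likeness is technical and was not tested as a shared function.

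Hspa1a and Hspa1b, the classical stress-induced HSP70 genes, were close to the limit of detection. Hspa1a (chr17:34969199-34972124, - strand, 1 exon) had 15, 21 and 17 tags in the 3, 10 and 30 ng high-volume libraries, against 15, 16 and 20 tags in the low-volume libraries, which is 0.188 to 0.331 RPKM. Hspa1b (chr17:34956436-34959238, - strand, 1 exon) had 6, 5 and 4 tags in the high-volume libraries, against 13, 1 and 3 tags in the low-volume libraries. A count of 0 still allows an expected count of up to 3, the limit used here. Hspa1b was not above that limit in the low-volume 10 and 30 ng libraries. Hspa1b did not pass the filter on low counts, which left 9 of the 10 members in the tests. The fitted log2 difference of Hspa1a was 0.38 (SE 0.77, adjusted p = 0.907 by edgeR), an interval too wide to show a difference at this depth.

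The 2 genes are neighbours on chromosome 17 and nearly the same in sequence. Their coding regions differed at 8 of 1926 aligned bases, and the longest stretch without a difference had 638 bases. Of all 50-base stretches, 66.3% of those in the Hspa1a transcript and 62.3% of those in the Hspa1b transcript also occurred in another gene. The treatment of reads with several matches is not given in the sources used here, so the division of tags between them is uncertain. A further 18.9% of the exonic bases of Hspa1a lie in exons of Gm20481, and the counts do not tell strands apart.

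The likeness reaches into the control regions. In the 300 bases around the start site in RefSeq (GRCm38.p6), which cover 250 bases before it and 50 after, the copies differed at 4 bases. The stretches from 225 to 166 bases before the start site are shown because 2 of those differences lie in them, in capitals, at chr17:34972322-34972381 and chr17:34959404-34959463, both on the - strand.
Hspa1a: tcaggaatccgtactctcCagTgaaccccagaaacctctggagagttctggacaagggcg
Hspa1b: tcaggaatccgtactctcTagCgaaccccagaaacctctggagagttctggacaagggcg

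The binding motif of heat shock factors is made of inverted GAA units. It was searched on both strands as 2 units, GAANNTTC or TTCNNGAA, and as 3 units, GAANNTTCNNGAA or TTCNNGAANNTTC. A 3-unit match always contains a 2-unit match. RefSeq promoters were found for 6 of the 10 members, in 7 entries, and those of Hspa8, Hsp90aa1, Hsp90ab1 and Hspa9 were not analysed here. The 2-unit motif stood in 3 of these 7 entries and in 15.1% of all 32851 promoters, and the 3-unit motif in 0 of 7 and 0.603% of all. The Hspa1a and Hspa1b promoters each had 1 match, 104 to 97 bases before the start site, and the Hspb1 promoter had 2 matches. The windows that hold them are shown with the motif in capitals, at chr17:34972207-34972276 (- strand) for Hspa1a, where Hspa1b has the same letters, and at chr5:135887779-135887848 (+ strand) for Hspb1.
Hspa1a: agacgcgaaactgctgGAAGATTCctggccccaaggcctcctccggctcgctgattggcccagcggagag
Hspb1: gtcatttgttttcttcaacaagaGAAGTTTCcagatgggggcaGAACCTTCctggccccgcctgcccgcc
A match is a run of letters and was not tested as a site, and no match in Dnajb1 says nothing beyond this window.

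Hspb1 encodes HSP25, the mouse form of HSP27, and gave the largest difference between volumes among the members. Its transcript (ENSMUST00000005077, chr5:135887919-135889563, + strand, 3 exons, 903 bases) had 91, 100 and 97 tags in the 3, 10 and 30 ng high-volume libraries, against 27, 19 and 50 tags in the low-volume libraries. In RPKM these were 6.51, 4.28 and 3.81 in high volume, against 1.77, 0.724 and 1.63 in low volume. All 3 high-volume libraries were above all 3 low-volume libraries, as for 4.03% of the genes tested. The mean was 3.54 times as high in high volume. The fitted log2 difference was 1.93 (SE 0.59), with an unadjusted p of 0.012 and an adjusted p of 0.691 by edgeR, so it did not pass over all genes. With the 10 and 30 ng libraries alone it was 1.96 with an adjusted p of 0.044 by edgeR, in a setting that called 274 genes. It stayed above 0 in all 14 alternative fits, between 1.62 and 2.45.

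All 3 exons of Hspb1 had more tags in high volume, although each averaged under 50 tags per library. Exon 1 had 13, 17 and 19 tags in high volume, against 0, 1 and 2 tags in low volume. Exon 2 had 23, 18 and 20 tags in high volume, against 3, 1 and 7 tags in low volume. Exon 3 had 55, 65 and 58 tags in high volume, against 24, 17 and 41 tags in low volume. The groups were apart in each of the 3 exons, and the ratio of the mean RPKM of high to low volume was 2.53 in exon 3. In low volume, all 3 libraries in exon 1 and 2 of 3 in exon 2 had no more than the 3 tags that a count of 0 allows, so no ratio is given for these exons.

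**Figure D2:**
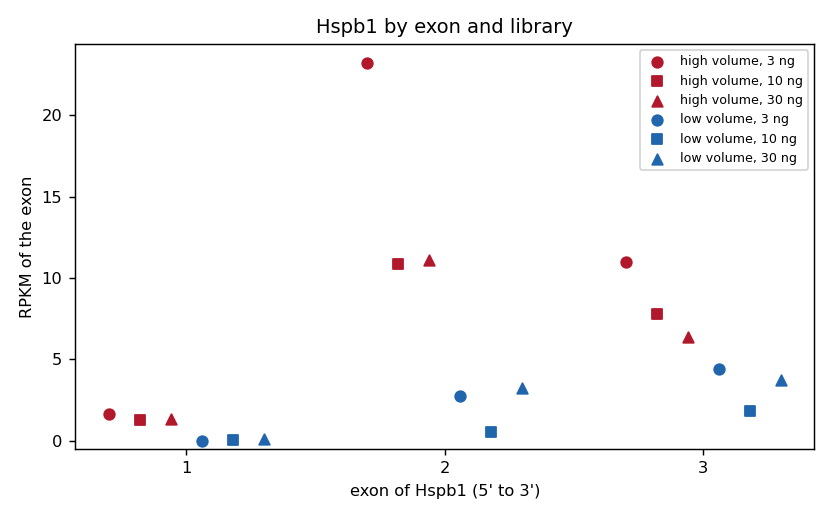
RPKM of the 3 exons of Hspb1 in each library, red for high and blue for low volume, with the marker giving the input. In each exon the 3 high-volume points lie above the 3 low-volume points, and the high-volume 3 ng library is the highest in all 3 exons.

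The second exon lies wholly in the coding region, at chr5:135889049-135889112 (+ strand, 64 bases, 53.1% G and C), and is shown because its sequence is shared with another gene.
Hspb1 exon 2: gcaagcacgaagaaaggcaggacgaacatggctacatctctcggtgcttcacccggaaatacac
Every 50-base stretch that starts in it also occurs in another gene. Over the whole transcript this share was 60.4%, nearly all of it in the processed pseudogene Hsp25-ps1 on chromosome 13, which itself was counted with 2 tags in the 6 libraries together. The Hspb1 transcript had the highest share of G and C among the members, 60.7%, against a median of 50.1% over the genes tested. With an input block and a correction for G and C content its log2 difference was 1.76 (adjusted p = 0.649 by edgeR). The marker lists of other cells did not all lie the same way. The summed level of 5 spinal cord markers was 7.72 to 13.7 RPKM in high volume and 2.50 to 4.08 RPKM in low volume, which was mostly Hes5, with a mean of 8.90 RPKM in high volume and 2.80 RPKM in low volume. Of the other spinal cord markers, Chat had 0.708 ± 1.18 RPKM in high volume and 0.129 ± 0.197 RPKM in low volume (SD, n = 3 each). Pax6 had 0.283 RPKM in high volume and 0.547 RPKM in low volume. Olig2 and Mnx1 had 2 and 1 tags in the 6 libraries together, under the limit that a count of 0 allows. The sum of 5 erythroid markers was 4572 to 4935 RPKM in high volume and 3754 to 4528 RPKM in low volume. The sum of 5 glial markers was 894 to 961 RPKM in high volume and 1006 to 1038 RPKM in low volume, and the sums for endothelium, fibroblasts and meninges, macrophages and skeletal muscle overlapped. All libraries came from the same pool of RNA, so the marker sums do not compare amounts of cells between the volumes. The source of the Hspb1 difference was not tested.

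Dnajb1, the J-domain partner of inducible HSP70, varied least of the 10 members, with a coefficient of variation of 6.53% over the libraries. It had 14.01, 15.4 and 16.9 RPKM in the 3, 10 and 30 ng high-volume libraries, against 16.0, 16.2 and 14.97 RPKM in the low-volume libraries (chr8:83608175-83611902, + strand). The groups overlapped in all 3 exons. The fitted log2 difference was 0.12 (SE 0.15, adjusted p = 0.856 by edgeR), and it was 0.037 without the low-volume 30 ng library. Among the inducible members it was one of 2 with more than 10 RPKM, beside Hsp90aa1.

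The cytosolic HSP90 genes differ in their control: Hsp90ab1 is constitutive and Hsp90aa1 is raised by stress. Hsp90aa1 (ENSMUST00000094361, chr12:110690605-110696395, - strand, 11 exons) had 136, 152 and 120 RPKM in the 3, 10 and 30 ng high-volume libraries, against 109, 148 and 138 RPKM in the low-volume libraries. Hsp90ab1 (ENSMUST00000024739, chr17:45567775-45573271, - strand, 11 exons) had 728, 735 and 835 RPKM in high volume, against 859, 870 and 942 RPKM in low volume. Hsp90aa1 overlapped between the volumes. All 3 high-volume libraries of Hsp90ab1 were below all 3 low-volume libraries, but after division by the TMM factors of the fit, which were 0.944 to 0.973 in high volume and 1.03 to 1.06 in low volume, they overlapped. The fitted log2 differences were 0.20 for Hsp90aa1 (SE 0.14, adjusted p = 0.795 by edgeR) and -0.07 for Hsp90ab1 (SE 0.07, adjusted p = 0.829 by edgeR). That of Hsp90aa1 was 0.0012 without the low-volume 3 ng library and 0.37 without the high-volume 30 ng library.

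The same scaling touches the other counts of separated groups. In the deposited RPKM, 1 of 10 members was above in high volume (background 4.03%), and 3 of 10 were below (Hspa8, Hsp90ab1 and Hspa5, background 15%). After division by the TMM factors, 1 was above (Hspb1, background 7.1%) and 2 were below (Hspa8 and Hspa5, background 8.45%).

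The order of the 2 most abundant members depended on the transcript taken for Hspa8, and on the coding transcript used for levels also on the volume. The ratio of Hsp90ab1 to Hspa8 on their coding transcripts was 1.04, 1.04 and 1.03 in the 3, 10 and 30 ng high-volume libraries, against 0.847, 0.865 and 0.934 in the low-volume libraries. Hsp90ab1 was thus the higher gene in 3 of 3 high-volume libraries and Hspa8 in 3 of 3 low-volume libraries. On the longer form of Hspa8 used in the fit, at 528 to 769 RPKM, Hsp90ab1 was higher in 6 of 6 libraries. On another coding transcript of Hspa8 (ENSMUST00000117557, 2019 bases), at 788 to 1143 RPKM, Hspa8 was higher in 6 of 6. The coding transcript of 2394 bases counts bases of exon 1 that held few tags. The longer form counts introns, which had 0.05% of the exon density. Both lengths therefore lower the RPKM of Hspa8, and of these forms only that of 2394 bases changed order with the volume. The ratio of Hsp90ab1 to Hspa8 was chosen after its values were seen and was not tested.

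The exons of Hsp90ab1 were not alike in their difference between volumes. Exons 1 to 5 together had 935, 948 and 1151 RPKM in high volume, against 945, 957 and 1150 RPKM in low volume, a ratio of means of 0.994. Exons 6 to 11 together had 639, 644 and 700 RPKM in high volume, against 822, 833 and 853 RPKM in low volume, a ratio of 0.791. The groups overlapped in each of exons 1 to 5 and did not overlap in each of exons 6 to 11. These calls of exons use the deposited RPKM, without the division by TMM factors that made the whole gene overlap, and they depend on that scale. The division between exons 5 and 6 was drawn after the values were seen and was not tested. In Hsp90aa1, exons 1 and 3 had all 3 high-volume libraries above all 3 low-volume libraries, with ratios of 1.26 and 1.21, and the other 9 exons overlapped. Of all exons with a mean of at least 50 tags, 2.58% lay wholly above and 20% wholly below in high volume.

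**Figure D3:**
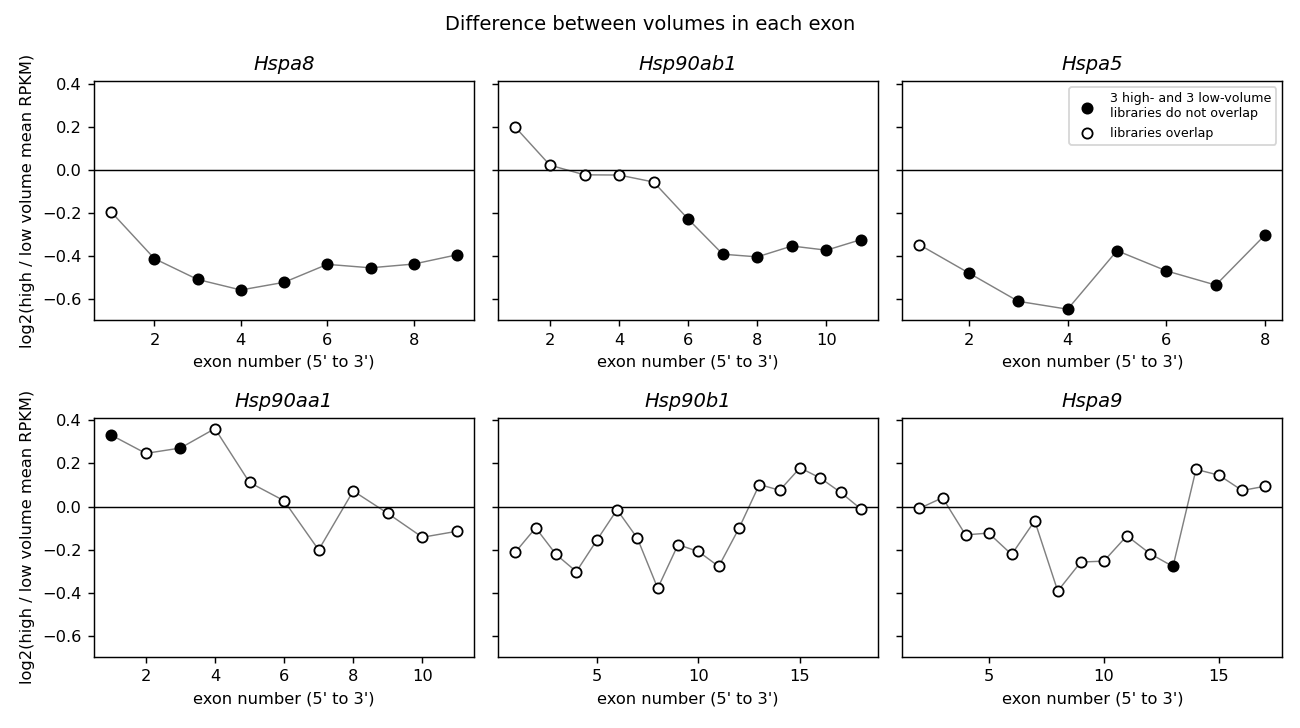
The log2 ratio of the mean RPKM in high volume to that in low volume for each exon with a mean of at least 50 tags, in 6 members; filled points mark exons where the 3 high-volume and 3 low-volume libraries do not overlap. Hspa8 and Hspa5 lie below 0 in every exon shown, while Hsp90ab1 lies between -0.056 and 0.20 in exons 1 to 5 and between -0.40 and -0.23 in exons 6 to 11.

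The levels of the Hsp90aa1 exons spread over 10.1 times, against 2.96 times in Hsp90ab1. Much of the Hsp90aa1 transcript is copied elsewhere: 58.5% of its 50-base stretches occurred in another gene, chiefly in the transcribed processed pseudogene Gm12346 on chromosome 11, against 4.49% for Hsp90ab1. In exons 6, 9 and 10 of Hsp90aa1 every such stretch was shared, and the means were 88.0, 80.5 and 71.4 RPKM. In exon 8, with 37.8% shared, the mean was 295 RPKM, and in exon 11, with 6.12% shared, it was 149 RPKM. Exon 1, which is untranslated, had 36.1% shared and 41.1 RPKM, and exon 4, the densest, had 62.7% shared and 414 RPKM. Gm12346 itself was counted with 0 to 18 tags per library. The part of shared sequence in these levels was not tested.

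**Figure D4:**
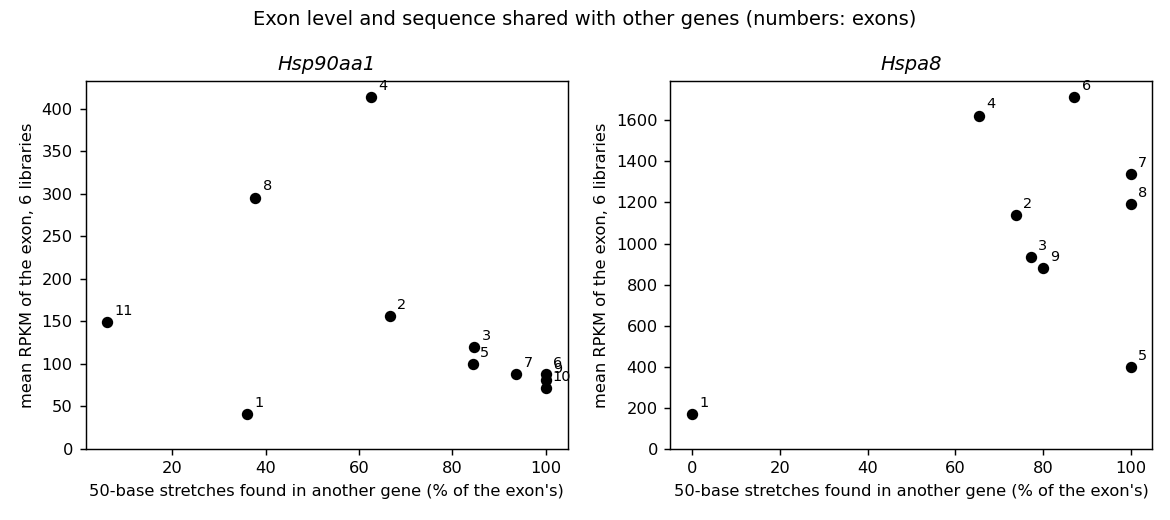
Mean RPKM of each exon over the 6 libraries against the share of its 50-base stretches that also occur in another gene, for Hsp90aa1 and Hspa8; the numbers are exons. In Hsp90aa1 the fully shared exons 6, 9 and 10 lie below 100 RPKM and exons 4 and 8 highest, whereas in Hspa8 the fully shared exons 7 and 8 lie at 1337 and 1193 RPKM.

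Hspa8 had the largest share of copied sequence of all members, 74.8%, chiefly in the processed pseudogene Gm15459 on chromosome 5, which was counted with 6 to 39 tags per library. Its fully shared exons 7 and 8 had 1337 and 1193 RPKM, and exon 5, also fully shared, had 398 RPKM. The part of shared sequence in these levels was not tested either. Exon 1, with nothing shared, had 169 RPKM over its 365 bases. The longer form of Hspa8 starts inside exon 1, at base 40801276, and had nearly the same tags. Few tags thus lay before that base, and the 169 RPKM understates the part of exon 1 that held tags. Other first exons of these genes added little: the alternative upstream first exon of Hsp90aa1 had 0 tags in all 6 libraries. Alternative first exons downstream of exon 1 had 17 tags in all for Hsp90aa1 and 6 tags in all for Hsp90ab1.

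In the endoplasmic reticulum, Hspa5 encodes BiP, the HSP70 that folds secretory proteins and restrains the sensors of the unfolded protein response, and Hsp90b1 encodes GRP94. Hspa5 (ENSMUST00000100171, chr2:34772095-34776531, + strand, 8 exons) had 107, 113 and 116 RPKM in the 3, 10 and 30 ng high-volume libraries, against 148, 156 and 140 RPKM in the low-volume libraries. All high-volume libraries were below all low-volume libraries, with a mean ratio of 0.754. It is also the member with no 50-base stretch shared with any other gene. The fitted log2 difference was -0.26 (SE 0.09), with an unadjusted p of 0.021 and an adjusted p of 0.691 by edgeR, and it stayed below 0 in all 14 alternative fits. In DESeq2 the adjusted p was 0.071. Of its 8 exons, 7 had the high-volume libraries wholly below in the deposited RPKM, against 20% of all exons with a mean of at least 50 tags.

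Hsp90b1 (ENSMUST00000020238, chr10:86690840-86705509, - strand, 18 exons) had 105, 101 and 95.1 RPKM in high volume, against 89.8, 117 and 107 RPKM in low volume. The groups overlapped in the gene and in all 18 exons. Its fitted log2 difference was 0.09 (SE 0.12, adjusted p = 0.861 by edgeR), and it was -0.081 without the low-volume 3 ng library. Exons of 1810014B01Rik and Gm15344 cover 21.6% of its exonic bases, so some of its tags cannot be told from theirs.

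Both promoters hold a match to the ER stress response element, through which the unfolded protein response raises chaperone genes, searched on both strands as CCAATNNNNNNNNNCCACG. It stood in 2 of the 7 member entries and in 0.119% of the 32851 promoters. Hspa5 had 1 match, 65 to 47 bases before the start site, and Hsp90b1 had 2 matches. The windows are shown with a match in capitals, at chr2:34771985-34772064 (+ strand) for Hspa5 and chr10:86705610-86705679 (- strand) for Hsp90b1.
Hspa5: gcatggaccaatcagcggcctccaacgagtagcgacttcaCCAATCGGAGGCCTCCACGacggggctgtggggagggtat
Hsp90b1: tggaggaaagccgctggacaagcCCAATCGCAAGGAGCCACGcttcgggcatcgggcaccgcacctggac
Hspa5 was separated between the volumes and Hsp90b1 was not, and the difference between the genes was not tested.

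Hspa9 encodes mortalin, the mitochondrial HSP70 that pulls proteins through the inner membrane. On ENSMUST00000025217 (17 exons) it had 45.4, 39.7 and 40.5 RPKM in the 3, 10 and 30 ng high-volume libraries, against 29.5, 52.6 and 46.8 RPKM in the low-volume libraries. The low-volume 3 ng library was the lowest of the 6, and the other low-volume libraries were the highest. The fitted log2 difference between volumes was 0.13 (SE 0.21, adjusted p = 0.886 by edgeR), and it was -0.18 without that library. The interaction of volume and input was -0.27 per doubling of the input (SE 0.13, unadjusted p = 0.062, adjusted p = 0.583 by edgeR), and 0.03 without that library. Exons 14 to 17, at the 3′ end, had 61.6, 51.9 and 44.7 RPKM in high volume, against 33.9, 61.3 and 52.0 RPKM in low volume. Exons 1 to 4 had 18.2, 22.4 and 28.1 RPKM in high volume, against 13.7, 29.7 and 27.6 RPKM in low volume. In both blocks the low-volume 3 ng library was the lowest.

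Neither input nor the interaction passed for any member. Over all genes 0% passed for input and 0% for the interaction of volume and input in edgeR, with 1252 and 1347 genes at an unadjusted p under 0.05, and DESeq2 called 36 and 17 genes. Of the members, Hsp90ab1 had the lowest unadjusted p for input, with a slope of 0.05 per doubling of the input (SE 0.03, unadjusted p = 0.088, adjusted p = 0.632 by edgeR). The interaction was -0.17 for Hsp90aa1 (SE 0.10, adjusted p = 0.596 by edgeR), or -0.017 without the low-volume 3 ng library and -0.33 without the low-volume 30 ng library. It was -0.14 for Hsp90b1 (SE 0.09, adjusted p = 0.609 by edgeR).

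In all, 7 pairs of related members were compared on log2(RPKM + 1) over the 6 libraries with a two-sided exact sign-flip test, whose smallest possible p is 0.0312. The first gene was the lower one in 6 of 6 libraries for every pair, and each pair had p = 0.0312, also after adjustment over the 7 pairs by the exact test. Hspa1a differed from Hspa8 by a log2 difference of -9.03 ± 0.30 (SD, n = 6), and Hspa1b from Hspa8 by -9.23 ± 0.29. Hsp90aa1 differed from Hsp90ab1 by -2.62 ± 0.26. The organelle forms were lower than the cytosolic forms: Hspa5 against Hspa8 gave -2.33 ± 0.08, Hspa9 against Hspa8 gave -3.93 ± 0.39, and Hsp90b1 against Hsp90ab1 gave -3.00 ± 0.19. With the coding transcript of Hspa8 in place of the longer form, the 4 differences from Hspa8 were -9.43, -9.62, -2.73 and -4.33 in the same order. Hspa1b against Hspa1a gave -0.19 ± 0.08, a value that rests on 32 and 104 tags and on how shared reads were divided. The pseudocount shrinks differences of genes near 0, so those of Hspa1a and Hspa1b are understated.

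**Figure D5:**
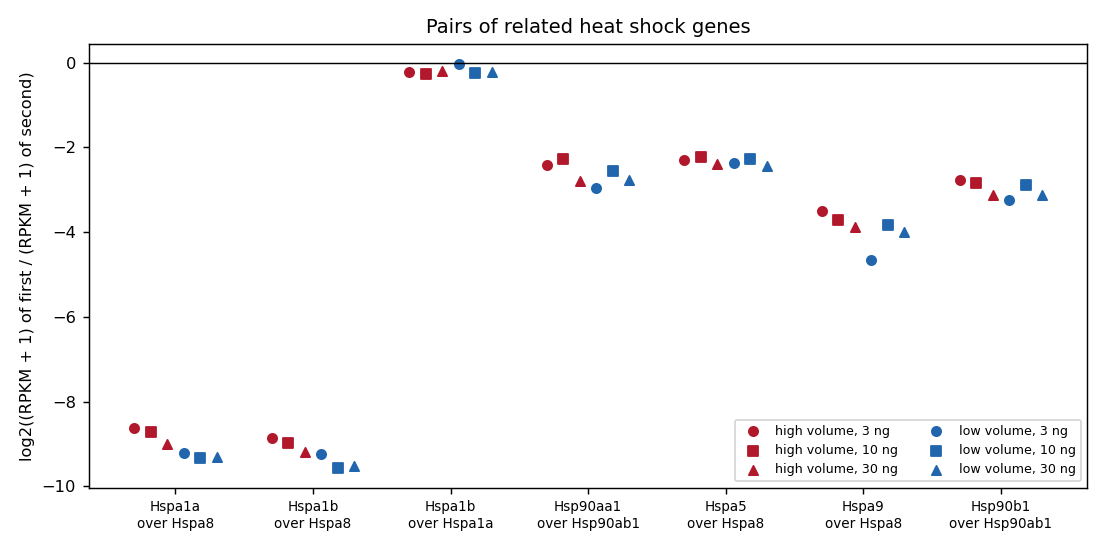
Log2 difference of RPKM + 1 between the first and the second gene of each pair, on the transcript with the most tags of each gene; each point is 1 library, red for high and blue for low volume, with the marker giving the input. All points lie below 0, near -9 for the inducible over the constitutive HSP70 and between -2 and -3 for Hsp90aa1 over Hsp90ab1.

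Copied sequence sets a bound on these levels. If every tag of a gene had come from the part of its transcript that no other gene shares, Hsp90aa1 would reach 327 RPKM and Hsp90ab1 884 RPKM, and Hspa1a 0.748 RPKM and Hspa8 3543 RPKM. The order within all 7 pairs was the same on this scale, with a log2 difference of -1.43 for Hsp90aa1 over Hsp90ab1, -4.73 for Hspa5 over Hspa8 and -6.27 for Hspa9 over Hspa8. For the pairs with Hspa8 the order was fixed beforehand, since Hspa8 was the higher gene and had the largest shared part, 74.8%. It was fixed for Hspa1b over Hspa1a as well, with 62.3% and 66.3% shared, so only the HSP90 pairs could have turned. With a pseudocount of 0.1 the difference of Hspa1b over Hspa1a was -0.95.

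Over all members, 76 of 82 exons had a mean of at least 50 tags. Of these, in the deposited RPKM without division by TMM factors, 2 were above in high volume (background 2.58%) and 22 were below (background 20%), and 52 overlapped. The 22 exons belong to Hspa8 (8), Hspa5 (7), Hsp90ab1 (6) and Hspa9 (1), and exons of 1 gene share its tags and are not independent. The mean position of tags, from 0 at the 5′ end to 1 at the 3′ end, was 0.685 ± 0.011 in high volume and 0.783 ± 0.014 in low volume for Hspb1 (SD, n = 3 each). It was 0.487 ± 0.017 in high volume and 0.521 ± 0.013 in low volume for Hsp90aa1, and 0.456 ± 0.007 in high volume and 0.484 ± 0.012 in low volume for Hsp90ab1. Tags of these 3 genes lay nearer the 5′ end in all high-volume libraries (exact permutation p = 0.1 each, the smallest that 3 against 3 allows), as for 7.04% of 8442 genes with at least 100 tags in each library, a level that Hspb1 itself does not reach. For 0 of the 8 members with several exons did they lie nearer the 3′ end in all high-volume libraries (background 2.64%). The median difference over those 8442 genes was -0.004.

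The heat shock factors and the cochaperones gave the surroundings. Hsf1, the factor that raises inducible chaperones, had a mean of 11.6 ± 3.06 RPKM and Hsf2 16.8 ± 2.96 RPKM (SD, n = 6). Of 3 factors tested, 0 passed for volume. Among other HSP70 and HSP110 genes, Hspa14, a ribosome-associated form, had 16.6 ± 3.35 RPKM in high volume and 26.4 ± 1.16 RPKM in low volume, and the nucleotide exchange factor Hsph1 had 15.8 ± 0.933 RPKM in high volume and 17.7 ± 0.369 RPKM in low volume (SD, n = 3 each). In that list 0 of 10 passed for volume, 1 was wholly above and 5 wholly below in high volume in the deposited RPKM, against 4.03% and 15% of all genes tested, and its median log2 difference was -0.14, against 0.02 over all genes tested. Hspe1, the lid of the mitochondrial chaperonin, averaged 421 ± 17.2 RPKM, the protease subunit Clpp 103 ± 11.3 RPKM and Hspd1, the partner of Hspe1, 69.8 ± 10.1 RPKM (SD, n = 6), and 0 of 9 mitochondrial chaperones passed, with a median of -0.03.

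Dnaja1, a J-domain partner of Hspa8, averaged 130 ± 20.8 RPKM and Dnajc7 70.3 ± 9.56 RPKM (SD, n = 6), both well above Dnajb1. Of 12 J-domain genes 0 passed, with a median log2 difference of -0.02. Among small heat shock proteins Cryab averaged 46.6 ± 6.00 RPKM and Hspb8 16.8 ± 3.10 RPKM (SD, n = 6), against 3.12 RPKM for Hspb1, and neither Cryab (log2 difference -0.02, adjusted p = 0.982 by edgeR) nor Hspb8 (-0.16, adjusted p = 0.848 by edgeR) showed the difference of Hspb1. Of the other small heat shock genes tested, Hspb2 (log2 difference 1.89, SE 1.47) and Hspb3 (1.16, SE 1.27) lay the same way as Hspb1. Hspb6 (-1.63, SE 1.43) lay the other way. They had 216, 296 and 604 tags in all, so their errors were wide. The difference between these genes was not tested. The HSP90 cochaperones Ahsa1, Sugt1 and Stip1 averaged 110 ± 6.75, 107 ± 11.6 and 107 ± 9.22 RPKM (SD, n = 6), and 0 of 16 cochaperones passed, with a median of -0.04. The chaperonin TRiC and prefoldin, which fold actin and tubulin, were abundant throughout: 14 of 14 genes had at least 10 RPKM, led by Pfdn5 at 525 ± 42.8 and Cct5 at 489 ± 56.2 RPKM, and 0 of 14 passed, with a median of -0.01.

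Of the 18 genes in the list of endoplasmic reticulum chaperones and unfolded protein response, 0 passed for volume, 13 had a log2 difference below 0, 7 were wholly below in high volume in the deposited RPKM (background 15%), and the median was -0.17. Other lists had such genes too: 4 of 9 mitochondrial chaperones, 5 of 14 TRiC and prefoldin genes, 3 of 12 J-domain genes, 3 of 16 cochaperones and 1 small heat shock protein. These list counts are not on the TMM scale, where the background was 8.45%. The collagen chaperone Serpinh1 had 221 ± 43.9 RPKM in high volume and 311 ± 41.5 RPKM in low volume, and the disulphide isomerase Pdia6 had 136 ± 20.3 RPKM in high volume and 204 ± 12.8 RPKM in low volume (SD, n = 3 each). Their log2 differences were -0.35 (adjusted p = 0.753 by edgeR) and -0.45 (adjusted p = 0.644 by edgeR). Serpinh1 is typical of cells that make collagen, and the summed level of 5 fibroblast and meninges markers was 263 to 286 RPKM in high volume and 274 to 297 RPKM in low volume. Both volumes drew on the same pool of RNA, so this sum does not compare amounts of such cells. The source of the Serpinh1 difference was not tested.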

How the data were processed

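The submitters' processing notes name CASAVA 1.8, TopHat2 2.0.8, Bowtie2 2.1.0 and the build GRCm38.p1. The deposited files give a tag count (a whole-number count) and the authors' RPKM for each transcript, exon and intron. Their counting program is not given in the sources used here. All members and gene lists were chosen with earlier results of these data known. Transcripts were matched to GENCODE M21 (89664 of 93615, 86.2% with the same coordinates), and the transcript with the largest summed count stood for its gene. Levels and exons of members are on coding transcripts. Genes were tested by the quasi-likelihood test of edgeR 4.0.16 (R 4.3.3, TMM, filterByExpr, Benjamini-Hochberg, threshold 0.05) with volume and centred log2 input, which left 3 residual degrees of freedom, or 2 with the interaction. Fits on fewer libraries left fewer residual degrees of freedom. DESeq2 1.42.0 was an alternative. The fit was tested on simulated counts. Named genes were all members, the 2 highest of each chaperone list, list genes that passed (0), and the 3 most like Hspa8. Hspd1, Stip1, the marker genes named and the exon blocks were chosen after their values were seen. Promoters are from RefSeq, GRCm38.p6, and the exon sequence from GENCODE. Tags carry no molecular identifiers, so limits cover counting error only.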

Additional observations from a re-analysis of the deposited data

Results flagged for a closer look

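Tags in introns were outside every comparison above. In the library with the most, they stood above the limit that a count of 0 allows, which is 3 tags, with 4 for Dnajb1, 9 for Hspb1 and 17 to 176 for the other 6 members with introns. Summed over the 6 libraries there were 10 tags in introns of Hspb1, 12 of Dnajb1, 104 of Hsp90aa1, 116 of Hspa8, 79 of Hsp90ab1, 37 of Hspa5, 686 of Hsp90b1 and 343 of Hspa9. Per base this was 0.02% of the exon density in Hsp90ab1 and 0.05% in Hspa8. For Hspb1, 9 of the 10 tags came from 1 library. No sample was tested as an outlier, since each volume has 3 libraries.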

How the results depend on the processing

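The choice of libraries and of tool moved the counts of calls over all genes. For volume, edgeR called 11 genes without the filter on low counts, 274 with the 10 and 30 ng libraries alone, 0 with the input as replicate block and 0 with the replicate block and a correction for G and C content, and DESeq2 called 179. When each library was left out in turn, the count ranged from 0 to 2. For input, the counts were 2 without the filter, 1 with the 10 and 30 ng libraries and 36 in DESeq2. For the interaction they were 254 without the filter and 17 in DESeq2. The cause was not tested. Among the members, Hspa8 passed for volume in 2 of these settings (10 and 30 ng alone, DESeq2) and Hspb1 in 1 (10 and 30 ng alone). DESeq2 gave Hspb1 no adjusted p.

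The sign of the volume difference held in all 14 alternative fits for Dnajb1, Hsp90aa1, Hsp90ab1, Hspa1a, Hspa5, Hspa8 and Hspb1, but its size did not. It ranged from 0.037 to 0.18 for Dnajb1, 0.0012 to 0.37 for Hsp90aa1, -0.10 to -0.038 for Hsp90ab1, 0.21 to 0.51 for Hspa1a, -0.33 to -0.22 for Hspa5, -0.37 to -0.27 for Hspa8 and 1.62 to 2.45 for Hspb1. It turned for 2 members. Hsp90b1 was at -0.059 with the 10 and 30 ng libraries alone and between -0.081 and 0.19 when each library was left out, and Hspa9 was at -0.18 with the 10 and 30 ng libraries alone and between -0.18 and 0.30. The interaction ranged from -0.56 to 0.027 for Hspa9, from -0.33 to -0.017 for Hsp90aa1 and from -0.29 to 0.0052 for Hsp90b1. The mean position of tags turned within a range of -0.0041 to 0.011 for Dnajb1, -0.0043 to 0.011 for Hspa8 and -0.0028 to 0.033 for Hsp90b1.

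With 5 libraries no pair can pass, since the smallest exact sign-flip p is then 0.0625. The differences ranged from -9.11 to -8.97 for Hspa1a over Hspa8, from -9.30 to -9.16 for Hspa1b over Hspa8, from -0.23 to -0.18 for Hspa1b over Hspa1a and from -2.70 to -2.56 for Hsp90aa1 over Hsp90ab1. They ranged from -2.35 to -2.31 for Hspa5 over Hspa8, from -4.02 to -3.79 for Hspa9 over Hspa8 and from -3.04 to -2.95 for Hsp90b1 over Hsp90ab1. All 35 values under the other 5 settings stayed below 0 and past the threshold. Where unshared length set the scale, the order could not turn for the pairs with Hspa8 or for Hspa1b over Hspa1a. The exons above in high volume numbered 2 to 5 and those below 22 to 33 when each library was left out, the highest without the low-volume 3 ng library. The labels give no replicate numbers. The inputs were the block, and it changed no call of a member. Coding transcripts, unshared length and the settings of exons were chosen after seeing the data.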
